A study of Mus musculus with 5 samples.

Results

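Granulomas that had formed in mice around silk were compared at 4 weeks with those that had formed around sponge, inside single subclusters of the cells rather than over the whole tissue. The members of the comparison are the cells that carried the same deposited subcluster name in both 4-week libraries, for every name of the myeloid, fibroblast and neutrophil subclusterings with at least 50 cells in each library. 8 names qualified. They were the myeloid subclusters C3, C6, C7 and C9, the fibroblast subclusters F1 and F2, the fibroblast subcluster with the deposited name Low quality, and the neutrophil subcluster N1. Together they held 7082 cells, 1304 of the 1873 cells of the silk library and 5778 of the 7701 cells of the sponge library, out of 41191 cells in all 5 libraries of the series. The question was which differences between the materials hold in every subcluster, and which arise because the libraries hold the subclusters in different proportions.

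The tissue of both groups is given as foreign body granuloma of the mouse. The sources used here give neither the strain, age and sex of the mice nor their number, any pooling, or the kind of silk and sponge. Each group is 1 single-cell library made with the droplet-based 3' kit of 10x Genomics, so no difference below has a replicate check. Every interval printed is an exact 95% interval for counting error alone, and it says nothing about the spread between animals. Values at 2 weeks come from a separate pair of libraries, also 1 per material.

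A foreign body that cannot be cleared is walled off by macrophages, which arrive as monocytes, take up and digest material, present antigen, and can fuse into giant cells. Fibroblasts are recruited around them and lay down collagen, which forms the capsule. Macrophages display digested protein to helper T cells on MHC class II molecules, whose genes are switched on together by the regulator CIITA. They recruit further monocytes through chemokines such as CCL2 and CCL7. Fibroblasts of such tissue differ among themselves, from matrix-producing cells to cells that make complement, cytokines and growth factors.

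The subclusters differed in size and depth. Silk held 127, 315, 496 and 61 cells of C3, C6, C7 and C9, and sponge 304, 1608, 2078 and 229. Of F1, F2, the low-quality fibroblasts and N1, silk held 126, 58, 62 and 59 cells and sponge 829, 374, 127 and 229. The median cell had 948 UMIs (counted molecules) in silk and 1374 in sponge in C6, 7009 and 4815 in C7, 8055 and 10375 in F1, and 1046 and 1101 in N1. The silk library held 11207419 UMIs and the sponge library 50734356. Only 2 cell barcodes occurred in both, neither with the same subcluster name. Counts were summed over the cells of a subcluster and given as counts per 1000000 in the sum (CPM). A gene was taken as measured in a subcluster when at least 25 UMIs would be expected in the smaller sum at the mean level of both libraries. It was counted as different when the 2 levels, with 10 CPM added to each, stood at least 2-fold apart. The log2 ratios of single genes and of summed lists below are those of silk over sponge without these 10 CPM, and medians over the members of a list are on the scale with them. The sex of the animals did not separate the libraries in C7, where the Y-linked gene Ddx3y stood at 63.6 CPM in silk and 73.9 in sponge and Xist had no UMI in either.

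The names carried by the cells were checked against marker genes. All 14 macrophage markers had UMIs in C3, C6 and C7 in both libraries, with summed levels of 19517, 22244 and 28361 CPM in silk and 21633, 15071 and 21160 CPM in sponge. C3 also had the monocyte markers at 6957 and 7496 CPM. C9 had all 10 dendritic cell markers, at 5308 and 7571 CPM, with few macrophage transcripts (1109 and 1652 CPM). Mast cell transcripts were also seen in C9, with 2 of 10 markers in silk (80.1 CPM) and 9 of 10 in sponge (405 CPM). Fibroblast markers stood at 133637 and 114112 CPM in F1 and at 94270 and 88197 CPM in F2, and neutrophil markers at 103077 and 102705 CPM in N1. The subclusterings were made by the authors on these same cells, so a difference that moved a cell into another subcluster cannot show up inside one.

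Few genes differed by 2-fold in any one subcluster, and fewer still in several. In C3, 7 of 3018 measured genes were higher in silk (0.232%) and 17 lower (0.563%). In C6 the numbers were 38 higher (1.07%) and 64 lower (1.8%) of 3563, and in C7 22 higher (0.256%) and 38 lower (0.442%) of 8589. C9, with 61 silk cells, had 36 higher (1.84%) and 68 lower (3.47%) of 1958. In the fibroblasts, F1 had 75 higher (1.35%) and 76 lower (1.37%) of 5547 and F2 148 higher (2.3%) and 64 lower (0.996%) of 6427. The low-quality fibroblasts had 30 higher (9.71%) and 19 lower (6.15%) of only 309 measured genes, and N1 had 10 higher (2.38%) and 15 lower (3.57%) of 420. The 3 subclusters with the fewest measured genes, C9, N1 and the low-quality fibroblasts, thus had the largest shares.

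No gene was 2-fold higher or 2-fold lower in all 4 myeloid subclusters among the 1736 genes measured in each (0% both ways). Of these genes, 97 were 2-fold different in at least 1 subcluster, 72 in exactly 1, 22 in exactly 2 and 3 in exactly 3, and none in opposite directions. At a fold of 1.5, 3 genes were higher in all 4 and 7 were lower. In the larger 3 (C3, C6 and C7), 0 of 2738 genes were 2-fold higher and 4 were 2-fold lower (0.146%). The 4 were the collagen genes Col1a1, Col1a2 and Col3a1, and Tnfaip6, a secreted protein that binds hyaluronan. Over the 4 myeloid subclusters of sponge, Tnfaip6 stood at 42.4 CPM, 2.19% of its level in F1. The part of transcripts from fibroblasts in this difference was not tested. C6 and C7, which hold most of the macrophages, shared 12 genes that were higher (0.337% of 3560) and 13 that were lower (0.365%). All of these counts rest on the same 2 libraries, so a gene seen in several subclusters has still been seen in 1 library of each material. The map of differences by gene and subcluster shows the blocks that the following paragraphs describe.

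**Figure D1:**
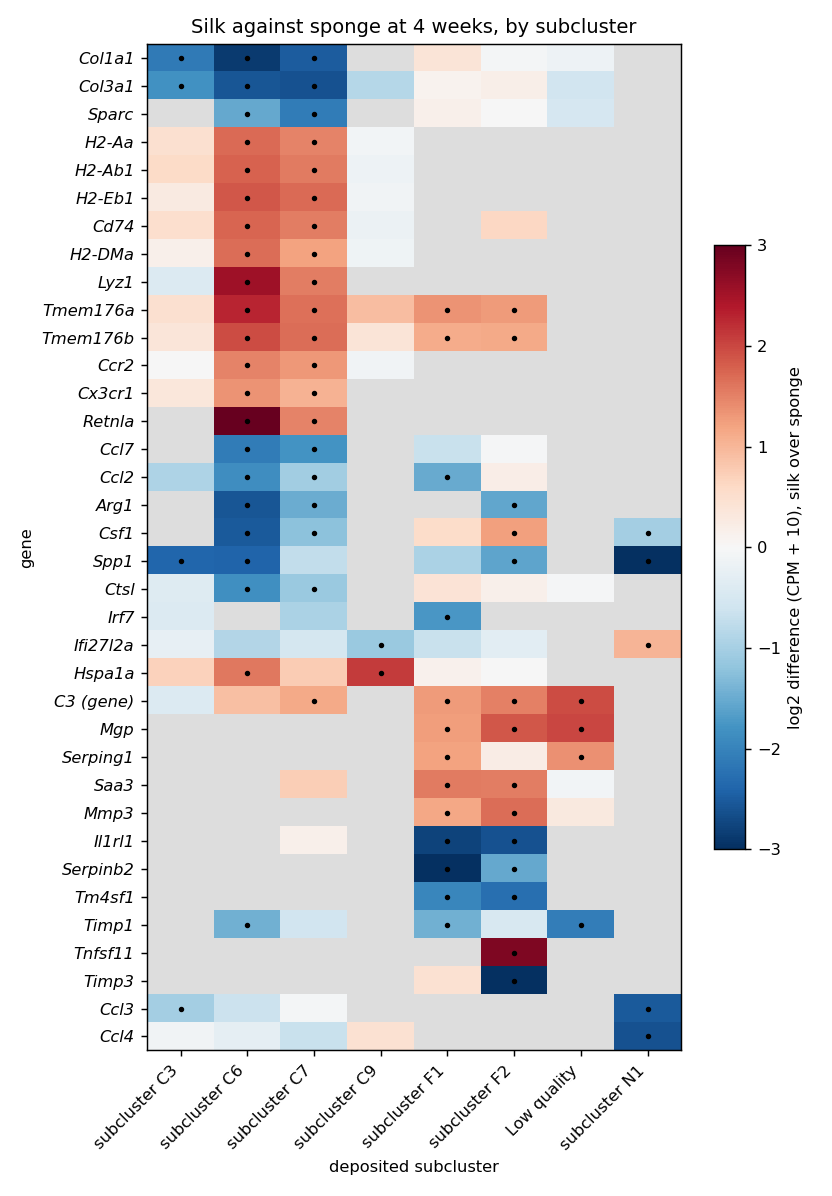
Difference between silk and sponge at 4 weeks for 36 genes (rows) in the 8 compared subclusters (columns), as the log2 ratio of CPM with 10 CPM added to each. Red is higher in silk, blue is lower in silk, grey cells were not measured, and dots mark differences of 2-fold or more. The MHC class II rows are red with dots in C6 and C7 and pale in C3 and C9, and the collagen rows are blue with dots in C3, C6 and C7 and pale in F1 and F2.

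Genes of antigen presentation on MHC class II formed the largest block of genes that were higher in silk in C6 and C7. Of the list's 7 members measured in C6, 6 were 2-fold higher (median log2 ratio 1.70, against -0.08 for all measured genes), and 6 of 8 in C7 (median 1.34, against -0.02). In C3, 0 of 7 members were 2-fold different (median 0.26), and in C9, where the level was highest in both libraries, 0 of 8 (median -0.14). H2-Aa encodes the alpha chain of the class II molecule I-A (chromosome 17, 34282744 to 34287823, minus strand, GRCm38). Its level was 5536 CPM in silk and 1693 CPM in sponge in C6 (log2 ratio 1.71, interval 1.65 to 1.77), and 1998 and 710 CPM in C7 (1.49, 1.45 to 1.53). It was 1558 and 1114 CPM in C3 (0.48, 0.35 to 0.61) and 7268 and 7651 CPM in C9 (-0.07, -0.14 to -0.01). Silk macrophages of C6 thus came within a factor of 2 of the level of C9, and those of sponge did not.

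The other chains and the loading machinery showed the same order. H2-Ab1, the partner beta chain (chromosome 17, 34257689 to 34269419), had log2 ratios of 1.78 in C6 and 1.57 in C7. H2-Eb1, the beta chain of I-E (chromosome 17, 34305867 to 34316674), had 1.87 and 1.73, from 4388 against 1204 CPM in C6 and 1487 against 448 CPM in C7. Cd74, the invariant chain that guards the peptide groove, stood at 12844 against 3796 CPM in C6 (1.76, 1.72 to 1.80) and 5091 against 1763 CPM in C7 (1.53, 1.5 to 1.56). The peptide exchange factors H2-DMa and H2-DMb1 had 1.76 and 1.5 in C6 and 1.28 and 1.17 in C7. Ciita, the regulator of these genes, was measured in C7 at 15.5 against 4.57 CPM (1.76, 1.26 to 2.27), a difference under 2-fold once the 10 CPM are added. Ctss, the protease that trims the invariant chain, differed little, at 2946 against 2723 CPM in C6 (0.11) and 3713 against 3356 CPM in C7 (0.15).

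Cells were thinned to 1000 UMIs each to compare single cells at equal depth, which kept 153 of 315 silk and 1073 of 1608 sponge cells in C6 and 493 of 496 and 2067 of 2078 in C7. The median C6 cell then had 28 UMIs of class II genes in silk and 5 in sponge, and the range from the 10th to the 90th percentile was 6 to 51 in silk and 1 to 24 in sponge. In C7 the medians were 12 and 4, with 2 to 38 and 1 to 16. At least 10 such UMIs were found in 82.4% of C6 cells in silk and 32.6% in sponge, and in 56.8% and 22.4% of C7 cells. The difference was therefore spread over much of each subcluster, with overlap between the libraries. In C3 the medians were 5 and 4 and in C9 36 and 39. An H2-Aa UMI was found in 81.0% of thinned silk C6 cells and 38.6% of sponge ones, and in 57.6% and 28.1% of C7 cells. In F1 fibroblasts, which should lack the gene, the thinned shares were 1.59% and 0.483%, at median depths of 8055 and 10375 UMIs before thinning. Without thinning, 230 of the 315 silk cells of C6 had an H2-Aa UMI.

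**Figure D2:**
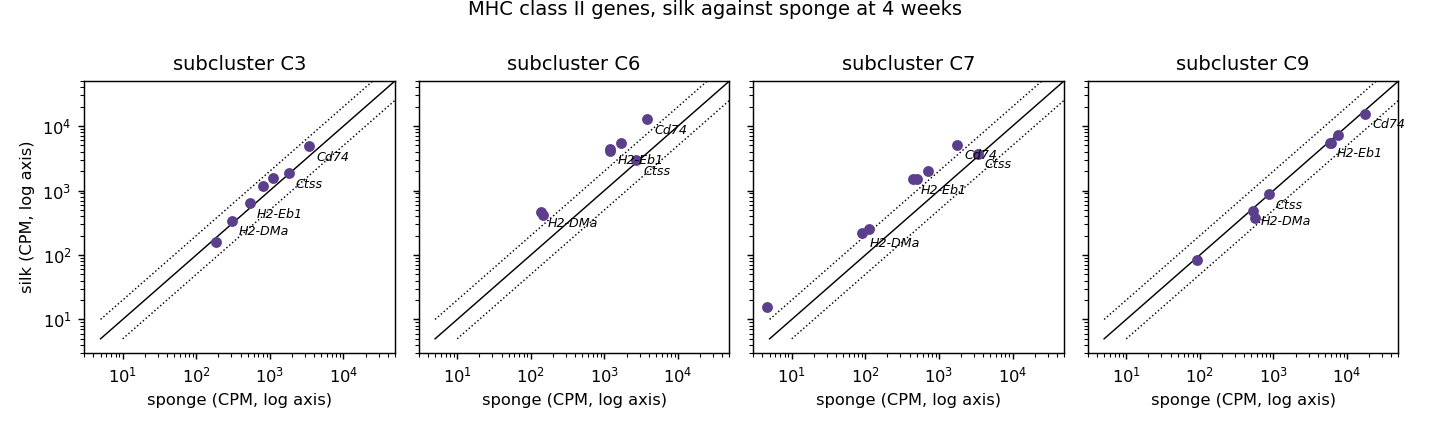
Level of each measured MHC class II presentation gene in silk (vertical, CPM, log axis) against sponge (horizontal, CPM, log axis) in the 4 myeloid subclusters at 4 weeks, 1 point per gene. The solid line marks equal levels and the dotted lines 2-fold. In C6 and C7 the points lie above the upper dotted line except Ctss, and in C3 and C9 they lie between the dotted lines.

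The promoters of these genes carry a shared set of short elements, among them the Y box, an inverted CCAAT sequence read by the factor NF-Y. The 8 letters CTGATTGG were searched on both strands in the 300 bases around the start (250 before, 50 after) of every promoter in a RefSeq table (GRCm38.p6). They occurred in 1346 of 32851 promoters (4.1%). Of the 10 list genes 7 had an entry, and 3 of the 7 held the letters. The 100 bases before the start are shown for H2-Aa and H2-Eb1, 2 genes of this block with an entry that hold the letters, with the letters in capitals. H2-Ab1, Cd74 and Ciita had no entry and were not searched. The H2-Aa stretch is chr17:34287824-34287923 on the minus strand, the H2-Eb1 stretch chr17:34305767-34305866 on the plus strand.
H2-Aa: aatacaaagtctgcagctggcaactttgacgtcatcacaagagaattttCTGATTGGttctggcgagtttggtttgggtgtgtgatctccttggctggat
H2-Eb1: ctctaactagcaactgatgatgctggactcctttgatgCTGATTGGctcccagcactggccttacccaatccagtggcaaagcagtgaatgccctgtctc
The letters begin 51 bases before the start in H2-Aa and 62 bases before it in H2-Eb1. A match describes the sequence and says nothing about binding in these cells.

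Other genes that were 2-fold higher in both C6 and C7 include surface receptors of monocyte-derived cells. Ccr2, the receptor for CCL2 and CCL7 (chromosome 9, 124101950 to 124113557), stood at 801 CPM in silk and 279 in sponge in C6 (log2 ratio 1.52, 1.36 to 1.68) and at 167 and 62.5 CPM in C7 (1.42, 1.28 to 1.56). In the monocyte-marked subcluster C3 it stood at 689 CPM in both (0.00, -0.19 to 0.18). Cx3cr1, the fractalkine receptor, had 1.44 in C6 and 1.13 in C7. Its ratios at 2 weeks were 2.19 and 1.79. Itgax, which encodes the integrin CD11c, had 1.46 in C6 and 0.83 in C7. The paired membrane proteins Tmem176a and Tmem176b had 2.58 and 2.12 in C6 and 2.25 and 2.08 in C7, and both were also 2-fold higher in F1 and F2.

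Lyz1, a lysozyme gene (chromosome 10, 117287797 to 117292868), stood at 1461 CPM in silk and 244 in sponge in C6 (2.58, 2.44 to 2.72) and at 3073 and 1058 CPM in C7 (1.54, 1.5 to 1.57). It is near-identical to its neighbour Lyz2, so the division of reads between them is uncertain. At equal depth a Lyz1 UMI was found in 46.7% of silk and 25.7% of sponge C7 cells and in 0.794% and 0.483% of F1 fibroblasts. Retnla, a secreted protein of alternatively activated macrophages (chromosome 16, 48842551 to 48844461), stood at 704 against 56.2 CPM in C6 (3.64, 3.39 to 3.91). Only 34 silk cells of C6 had a Retnla UMI, and in C7 (424 against 144 CPM, 1.56) 1 of the 51 cells with a UMI held 34.1% of them. Mfge8, which bridges dying cells to phagocytes, was higher in C7 at 1038 against 420 CPM (1.30), as was the haemoglobin scavenger Hp at 106 against 21.9 CPM (2.28).

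The genes that were lower in silk in C6 and C7 include monocyte chemokines, Arg1 and Csf1. Some of them had higher levels in other cells of the sponge library. Over the 4 myeloid subclusters Ccl7 stood at 9.29% and Ccl2 at 11.6% of their level in F1, and Csf1 at 5.32% of its level in N1. Myeloid subclusters outside the comparison held high levels as well. In sponge Ccl7 rose from 98.3 to 229 CPM when all myeloid subclusters with at least 5 cells in each library were taken. Ccl2 rose from 143 to 279 CPM. The part of transcripts from any of these other cells was not tested. Ccl7 (chromosome 11, 82045712 to 82047525) stood at 71.4 CPM in silk and 340 in sponge in C6 (-2.24, -2.72 to -1.82) and at 7.98 and 51.8 CPM in C7 (-2.68, -3.22 to -2.22). Its neighbour Ccl2 (chromosome 11, 82035571 to 82037453) had -1.95 in C6, -1.23 in C7 and -0.99 in C3. Both ratios were larger in size at 2 weeks, at -3.61 and -4.04 for Ccl7 and -2.86 and -3.41 for Ccl2 in C6 and C7. The fibroblast subclusters differed on Ccl2: F1 had 423 against 1230 CPM (-1.54), and F2 1171 against 1026 CPM (0.19). Of the chemokine list, 4 of 14 measured members in C6 and 4 of 18 in C7 were 2-fold lower and 0 were 2-fold higher, with medians of -0.72 and -0.57. Among all measured genes 1.8% and 0.442% were 2-fold lower.

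Arg1, the arginase of alternatively activated macrophages (chromosome 10, 24915221 to 24927484), stood at 44.4 CPM in silk and 314 in sponge in C6 (-2.80, -3.42 to -2.28) and at 56.9 and 176 CPM in C7 (-1.63, -1.82 to -1.45). Its ratios at 2 weeks were 0.02 and -0.16. So Arg1 and Retnla, both members of the alternative activation list, lay on opposite sides at 4 weeks, and the list had medians of -0.02 in C6 and 0.00 in C7. Csf1, the growth factor that keeps macrophages alive, had -3.32 in C6 and -1.52 in C7, but 1.33 in F2 (223 against 88.7 CPM) and 0.59 in F1. Spp1, the matrix protein osteopontin (chromosome 5, 104435118 to 104441050), stood at 627 against 3358 CPM in C6 (-2.42), 3353 against 5642 CPM in C7 (-0.75) and 15.6 against 124 CPM in C3 (-2.90). The lysosomal protease Ctsl had -1.87 in C6 and -1.13 in C7. Ctsk, the collagen-degrading protease of osteoclasts, had -2.13 in C6 (90.4 against 400 CPM) and -0.48 in C7 (1910 against 2657 CPM), and Inhba, a subunit of activin, -3.30 and -0.81.

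The genes that were 1.5-fold lower in all 4 myeloid subclusters were Hist1h1c, Il1rn, Pdia6, Celf1, mt-Co3, Col1a2 and Col3a1. Hist1h1c, a linker histone, had log2 ratios of -0.99, -1.11, -1.01 and -1.54 in C3, C6, C7 and C9. Il1rn, the interleukin-1 receptor antagonist, had -1.08, -0.75, -0.64 and -2.47, and Pdia6, a folding enzyme of the endoplasmic reticulum, -0.65, -1.04, -0.64 and -1.12. At 2 weeks Hist1h1c had -0.44, 0.28, 0.00 and 0.07, and Il1rn -0.49, 0.23, 0.01 and 0.68. The 3 genes that were 1.5-fold higher in all 4 were the ribosomal genes Rpl36a and Rps27 and the heat shock gene Hspa1a. Hspa1a had 0.69, 1.63, 0.79 and 2.13 in the same order, and reads may be split between it and its near-identical copy Hspa1b.

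Measures of RNA quality moved with the material in the same subclusters. Mitochondrial transcripts made up 5.04% of UMIs in silk and 8.52% in sponge in C7, 5.09% and 7.11% in C6, 3.5% and 6.66% in F1 and 3.85% and 7.12% in F2. In N1 they made up 1.75% and 1.69%. Ribosomal protein transcripts made up 13.9% and 8.78% in C6, 21.6% and 15.2% in C9 and 11.1% and 10.8% in F1. Of the ribosomal protein genes, 76 of 79 lay above 0 in C3, 79 of 80 in C6, 76 of 83 in C7 and 79 of 79 in C9, and 9 of 81 in F2. Of the mitochondrial genes, 10 of 11, 11 of 12, 10 of 13 and 10 of 11 lay below 0 in C3, C6, C7 and C9 and 12 of 12 in F1. Their part in the differences listed here was not tested.

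Collagen transcripts were lower in silk in the myeloid subclusters, and nearly level in the fibroblast subclusters F1 and F2, which make collagen. Col1a1, the main fibrillar collagen gene (chromosome 11, 94936224 to 94953042), stood at 19.5 CPM in silk and 118 in sponge in C3 (-2.53, -3.69 to -1.68), 27.0 and 262 CPM in C6 (-3.24, -4.07 to -2.59), and 15.5 and 133 CPM in C7 (-3.09, -3.46 to -2.76). The classes outside the compared subclusters had the same order, with 20.1 and 136 CPM in NK and T cells and 17.2 and 173 CPM in endothelial cells. In F1, by contrast, the level was 30754 CPM in silk and 23401 in sponge (0.39), and in F2 17225 and 18077 CPM (-0.07). The level in C7 was 0.066% of that in F1 and F2 together in silk and 0.628% in sponge. Col1a1, Col1a2 and Col3a1 thus lay at or below 1.29% of the fibroblast level in each myeloid subcluster of either library. Fibroblasts held 24.3% of the UMIs of the silk library and 44.3% of those of the sponge library, a log2 ratio of -0.86. Summed over 18 collagen genes, the low-quality fibroblasts were lower in silk, at 55032 against 70650 CPM (-0.36, -0.41 to -0.31). The ratios of this sum were -2.68, -3.06 and -3.06 in C3, C6 and C7, -1.05 in C9 and -3.33 in N1, against 0.21 in F1 and 0.08 in F2. Free RNA in the droplets gives such a low level in every cell type, and its part here was not tested.

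**Figure D3:**
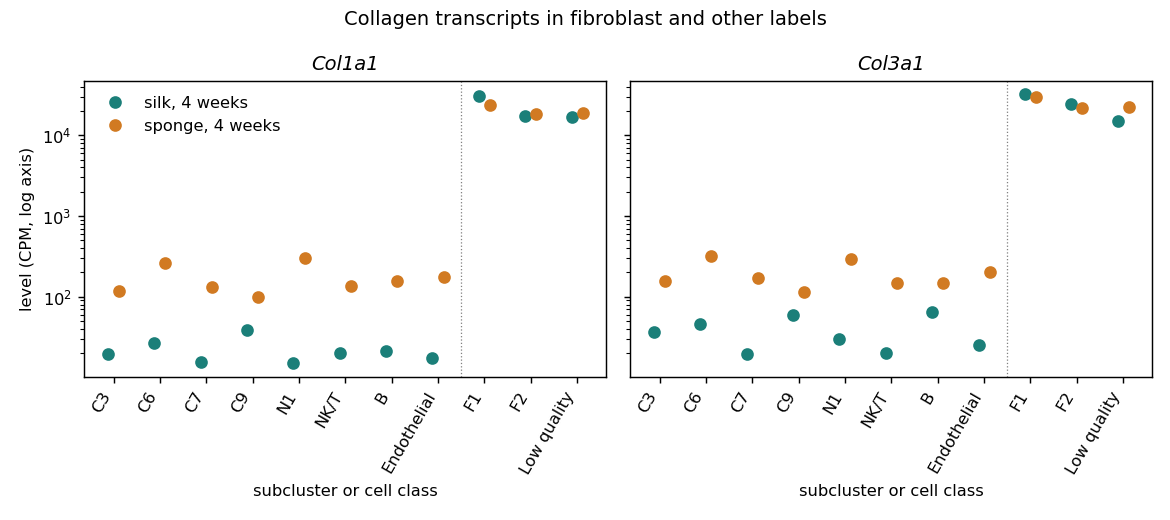
Level of Col1a1 (left) and Col3a1 (right) in CPM on a log axis, by subcluster or cell class, in silk and sponge at 4 weeks. Right of the dotted line stand the 3 fibroblast subclusters, between 14969 and 31986 CPM over both genes and libraries. Left of it every silk point lies below its sponge point.

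The summed level of type I interferon response genes was lower in silk in the myeloid and fibroblast subclusters and higher in N1, and most members differed by less than 2-fold. Members of the type I interferon list lay below 0 in 14 of 14 measured cases in C3 (median log2 ratio -0.37, against -0.04 for all genes), 5 of 5 in C6 (-0.89, against -0.08), 18 of 18 in C7 (-0.52, against -0.02) and 11 of 15 in F1 (-0.40, against -0.06). In C9 it was 3 of 5 (-0.14, against -0.10) and in F2 5 of 8 (-0.34, against 0.03). The members that were 2-fold lower numbered 1, 2, 2, 1, 2 and 1 in C3, C6, C7, C9, F1 and F2, where all measured genes gave 0.563%, 1.8%, 0.442%, 3.47%, 1.37% and 0.996%. The summed level of 28 list genes was 4025 CPM in silk and 5100 in sponge in C3 (-0.34, -0.41 to -0.27), 782 and 1604 CPM in C6 (-1.03, -1.17 to -0.90) and 474 and 750 CPM in C7 (-0.66, -0.73 to -0.59). It was 1834 and 2340 CPM in F1 (-0.35) and 623 and 764 CPM in F2 (-0.29). N1 alone lay on the other side, at 4301 against 2888 CPM (0.58, 0.37 to 0.77), with only 2 list genes measured. The separate list of interferon gamma response genes did not follow this order: its summed level had log2 ratios of -0.06 in C3, 0.07 in C6, 0.13 in C7, 0.75 in C9, 0.27 in F1, -0.30 in F2 and -0.79 in N1.

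Ifi27l2a, an interferon-induced membrane protein (chromosome 12, 103442167 to 103443680), led this list in level. It stood at 1868 CPM in silk and 2216 in sponge in C3 (-0.25), 387 and 723 CPM in C6 (-0.90), 114 and 170 CPM in C7 (-0.57), 330 and 534 CPM in F1 (-0.69) and 1169 and 572 CPM in N1 (1.04). Irf7, the transcription factor that amplifies the interferon response (chromosome 7, 141262706 to 141266481), had -1.74 in C7, -2.34 in F1 and -0.42 in C3. Isg15, a ubiquitin-like protein, had -1.12 in C7, -0.98 in F1, -3.01 in F2 (5.09 against 43.9 CPM) and 0.72 in N1. At 2 weeks the summed list lay lower in silk in all 8 subclusters, between -1.58 in C6 and -0.44 in N1.

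**Figure D4:**
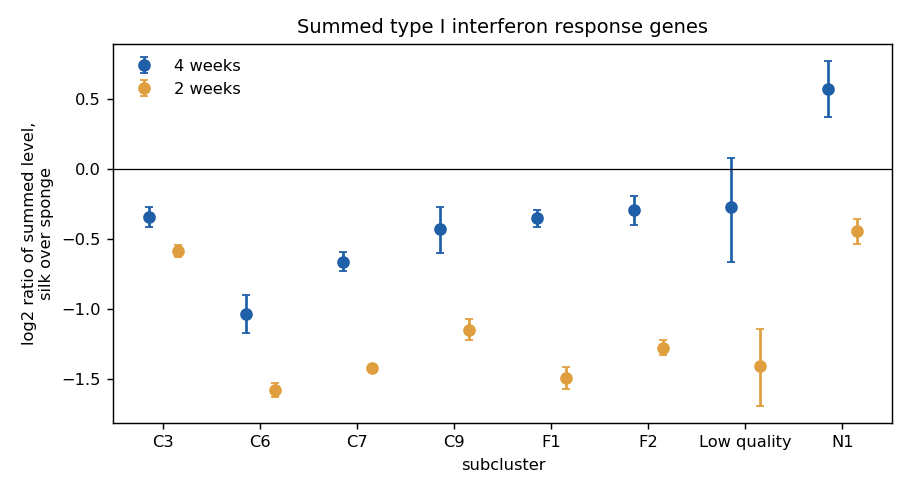
Log2 ratio of the summed level of 28 type I interferon response genes, silk over sponge, in each compared subcluster at 4 weeks (blue) and 2 weeks (orange). Bars are 95% intervals for counting error only. All 2-week points and all 4-week points but that of N1 lie below 0.

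C9, the subcluster with dendritic cell markers, differed from the macrophages in which genes were lower. Ccl17, a chemokine for T cells (chromosome 8, 94810453 to 94812036), stood at 205 CPM in silk and 1146 in sponge (-2.48, -2.85 to -2.14), and Ccl22, which binds the same receptor, at 1515 and 3460 CPM (-1.19). Ccr7, the receptor that guides mature dendritic cells to lymph nodes, stood at 2022 and 1714 CPM (0.24), and Fscn1, an actin-bundling protein of the same cells, at 854 and 405 CPM (1.08). Of the alternative activation list, 4 of 8 members were 2-fold lower and 0 higher (median -1.07), where 3.47% of all measured genes in C9 were 2-fold lower. Several ratios in C9 came from single cells. Cxcl9 and Cxcl10 were higher at 5.93 and 5.94, but 1 silk cell held 96.0% and 100% of their UMIs. Il12b, a subunit of interleukin-12, stood at 498 against 98.9 CPM (2.33) with UMIs in 14 silk cells, 1 of which held 55% of them. The mast cell transcripts given above moved with these values, and their part was not tested.

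In the fibroblasts, 2 of the 308 genes measured in all 3 subclusters were 2-fold higher in silk (0.649%) and 0 were lower (0%). They were C3, the central complement component, and Mgp. The complement gene C3 (chromosome 17, 57203970 to 57228136, not to be mistaken for the myeloid subcluster of that name) stood at 6539 CPM in silk and 2671 in sponge in F1 (1.29, 1.26 to 1.33), 1115 and 385 CPM in F2 (1.54, 1.44 to 1.62) and 4519 and 1159 CPM in the low-quality fibroblasts (1.96, 1.73 to 2.19). Mgp, which inhibits calcification (chromosome 6, 136872435 to 136875823), stood at 1692 and 705 CPM in F1 (1.26), 1698 and 458 CPM in F2 (1.89) and 1677 and 413 CPM in the low-quality cells (2.02). At 2 weeks the ratios of the complement gene were 0.47, -0.20 and 0.26 and those of Mgp 1.12, -0.39 and 0.59.

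Over F1 and F2 alone, 7 of 5204 genes were 2-fold higher (0.135%) and 11 lower (0.211%). The higher ones were C3, Mgp, Mmp3, Pla1a, Saa3, Tmem176a and Tmem176b. Mmp3, the protease stromelysin, had 1.17 in F1 and 1.74 in F2, and Pla1a, a phospholipase, 1.21 and 1.93. Saa3, an acute-phase protein, had 1.58 in F1 and 1.56 in F2, but only 9 silk cells of F2 had a UMI of it and 1 of them held 44.1%. The lower ones were Il1rl1, Slpi, Tm4sf1, Uck2, Serpinb2, Cxcl2, Tnfrsf11b, Lrrc15, Inhba, Gm10076 and mt-Co3. Il1rl1, the receptor for interleukin-33 (chromosome 1, 40429570 to 40465415), stood at 14.2 against 155 CPM in F1 (-3.40, -4.23 to -2.76) and 19.6 against 171 CPM in F2 (-3.10, -3.73 to -2.57). It was lower at 2 weeks as well, at -2.22 and -1.69. Tm4sf1, a membrane protein, had -2.08 and -2.34, the neutrophil chemokine Cxcl2 -2.11 and -1.44, and Lrrc15, a marker of activated fibroblasts, -2.58 and -1.17. Over the compared fibroblasts of sponge, Cxcl2 stood at 0.757% and Slpi at 1.62% of their level in N1. The part of transcripts from neutrophils in these differences was not tested. Serpinb2, a protease inhibitor, had no UMI in F1 of silk against 233 CPM in sponge, which makes it at least 92.5-fold lower with a floor of 3 counts, and stood at 227 against 674 CPM in F2 (-1.57).

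Complement genes were higher in silk in F1 and the low-quality fibroblasts, and in F2 they lay on both sides. In F1, 4 of 8 measured members were 2-fold higher and 0 lower, with a median of 0.99 against -0.06 for all genes, of which 1.35% were 2-fold higher. Besides the gene C3, they included Serping1 (3987 against 1726 CPM, 1.21), the inhibitor of the C1 complex, and C2 (1.06), a protease of the classical pathway. In the low-quality cells 3 of 4 were 2-fold higher (median 1.65), where 9.71% of all measured genes were. In F2 only the gene C3 was 2-fold higher of 8, and Cfb, the protease of the alternative pathway, was 2-fold lower at 45.1 against 115 CPM (-1.34). The summed level of the list was 15400 against 7145 CPM in F1 (1.11, 1.08 to 1.13), 2462 against 1481 CPM in F2 (0.73) and 9659 against 3592 CPM in the low-quality cells (1.43). At 2 weeks the same sums had -0.05, -0.66 and 0.11.

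Further genes with large differences in F1 lay in both directions. Inmt, a methyltransferase (chromosome 6, 55170626 to 55175043), stood at 390 CPM in silk and 45.3 in sponge (3.10, 2.92 to 3.29), and Igfbp3, a binding protein for insulin-like growth factors, at 282 and 39.6 CPM (2.83). Sult1e1, an estrogen sulfotransferase, had 3.84 (85.5 against 5.93 CPM), the proteoglycan Ogn 1.66, and Pi16, a marker of fibroblasts around vessels, 1.11. In F2 none of Inmt, Igfbp3, Sult1e1 and Ogn was measured, so these genes cannot be compared there. In the low-quality fibroblasts Ogn had 2.33, and Igfbp3 was at least 10.8-fold higher in silk, against no UMI in sponge and a floor of 3 counts. Tnc, the matrix protein tenascin-C (chromosome 4, 63959785 to 64047015), was lower in F1, at 8.38 against 202 CPM (-4.52, -5.65 to -3.71), and stood at 465 against 811 CPM in F2 (-0.80). Crabp2, which carries retinoic acid, was lower in F1 at 7.54 against 114 CPM (-3.84) and near level in F2 at 709 against 648 CPM (0.13). The matrix genes Postn (-0.83 in F1, -0.78 in F2) and Cthrc1 (-1.49 and -0.98) were lower in both. The collagen list itself had medians of -0.09 in F1 and -0.05 in F2.

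Among the genes of F2 described here, which were partly chosen after their values were seen, several stood far apart in both directions. Tnfsf11, the cytokine RANKL that drives osteoclast formation (chromosome 14, 78277445 to 78308043), stood at 794 CPM in silk and 106 in sponge (2.91, 2.77 to 3.04), with UMIs in 33 of the 58 silk cells. Its decoy receptor Tnfrsf11b, known as osteoprotegerin, was lower, at 62.6 against 153 CPM in F2 (-1.28) and 11.7 against 35.4 CPM in F1 (-1.55). At 2 weeks Tnfrsf11b was on the other side, at 1.70 in F2 and 1.25 in F1. Pthlh, a hormone-like peptide that raises RANKL in bone, stood at 663 against 128 CPM (2.37) in 28 silk cells. Adamts8, a matrix protease (chromosome 9, 30942562 to 30963838), stood at 854 against 2.03 CPM (8.67, 7.99 to 9.56), from 21 silk cells of which 1 held 22% of its UMIs. Timp3, an inhibitor of such proteases (chromosome 10, 86300372 to 86349506), was lower at 17.5 against 414 CPM (-4.54), and in F1 it stood at 187 against 134 CPM (0.48). Of the cholesterol synthesis list, 5 of 16 members were 2-fold higher in F2 (median 0.88) and 0 of 6 in F1 (median -0.26), where 2.3% and 1.35% of all measured genes were 2-fold higher. With 58 silk cells, F2 rests on few cells for each of these.

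Some genes went opposite ways in 2 fibroblast subclusters. Cd109, a membrane protein that binds transforming growth factor beta, was lower in F1 (20.1 against 103 CPM, -2.33) and higher in F2 (355 against 159 CPM, 1.16). Sfrp1, an inhibitor of Wnt signals, was higher in F1 (286 against 126 CPM, 1.18) and lower in F2 (9.46 against 30.2 CPM, -1.63). Gas1, a membrane protein of growth arrest, was lower in F2 (-1.46) and higher in the low-quality cells (1.70). These low-quality cells, with median depths of 706 UMIs in silk and 1228 in sponge, also had Pi16 at 2205 against 188 CPM (3.54) and Tnxb at 1677 against 252 CPM (2.73). Timp1, an inhibitor of matrix proteases, was lower there at 326 against 1394 CPM (-2.06) and in F1 at 364 against 1004 CPM (-1.46).

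In N1, 2 of the 5 measured chemokines, Ccl4 and Ccl3, were 2-fold lower in silk and 0 higher (list median -0.82, against 0.09 for all genes), where 3.57% of all measured genes were 2-fold lower. Both attract leukocytes to inflamed tissue. Ccl4 (chromosome 11, 83662584 to 83664683) stood at 1439 CPM in silk and 8843 in sponge (-2.61, -2.93 to -2.33), and Ccl3 (chromosome 11, 83647844 to 83649355) at 1184 and 6812 CPM (-2.52, -2.87 to -2.20). At 2 weeks they had 0.05 and 0.33. Hcar2, a receptor for niacin and ketone bodies, stood at 465 and 1938 CPM (-2.04), and Il1rn at 1469 and 3913 CPM (-1.41). Il1b, the central inflammatory cytokine of neutrophils, was near level at 16080 and 14605 CPM (0.14). Among the genes that were higher were Cytip (1.34), which regulates adhesion, Dgat1 (1.23), the enzyme that completes triglyceride synthesis, and Selplg (1.15), the ligand of P-selectin. Spp1 was lower at 135 against 1377 CPM (-3.28), from UMIs in 2 silk cells. N1 depended on the scaling: with TMM factors, which set most genes level, its ratios were lower by 0.30 on the log2 scale (by 0.36 in the low-quality fibroblasts), and 1 gene was higher and 36 lower in place of 10 and 15. The summed interferon list of N1 stayed above that shift. Macrophage markers stood at 6144 CPM in silk and 7369 in sponge in N1, with 7 and 13 of 14 detected, and their part was not tested.

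Across all classes almost nothing held. Of 5822 genes measured in at least 1 myeloid and 1 fibroblast subcluster, 1 was 2-fold higher (0.0172%) and 1 was 2-fold lower (0.0172%) in every subcluster with a measurement. The lower one was Arg1, measured in C6, C7 and F2. In F2 it stood at 4.36 against 32.1 CPM (-2.77). Over the compared fibroblasts Arg1 had 6 UMIs in silk, and its sponge level of 19.6 CPM was 6.25% of that in C6. The part of transcripts from myeloid cells was not tested. The higher one was the predicted gene Gm47283, measured in C7 (23.1 against 4.35 CPM) and F2 (29.8 against 6.75 CPM). Both counts were 0 when the top cell of each gene was left out, when the cells with the highest doublet scores were left out, and with 50 CPM added in place of 10. Spp1 was lower in each of C3, C6, C7, F1, F2 and N1, by less than 2-fold in C7 and, with the 10 CPM added, in F1.

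To separate composition from change within subclusters, each class was rebuilt with the same mixture of subclusters in both libraries. The UMIs of the 4 myeloid subclusters were divided in similar ways: C7 held 75.8% in silk and 71.7% in sponge, C6 10.3% and 15.5%, C3 8.38% and 5.88%, and C9 5.51% and 6.89%. Over these subclusters, 16 of 9212 genes were 2-fold higher (0.174%) and 40 lower (0.434%). All 16 and 36 of the 40 still differed by 2-fold with equal mixtures, and 4 lay in between. A difference was put down to composition when less than 0.5 on the log2 scale was left with equal mixtures, and that held for 0 of these genes. Lyz1, for example, had 1.62 as a whole and 1.58 with equal mixtures. Over all myeloid subclusters with at least 5 cells in each library, composition accounted for 1 lower gene. Among them C5 held 1.83% of UMIs in silk and 7.1% in sponge. Over this wider set Ccl7 had -2.20 as a whole and -1.12 with equal mixtures, and Ccl2 -1.58 and -0.97. Levels were also set beside those of the subclusters and classes with at least 50 cells in each library, so smaller ones such as C5 were not searched. Of the 40 lower genes, 25 had a myeloid level in sponge under 10% of their highest level among these units. Of these 25 genes 11 were highest in F1 and 10 in F2. For Ccl7 the search left out higher levels, since its sponge level was 98.3 CPM over the 4 subclusters and 229 CPM over the wider set. Among the 16 higher genes, 3 had a myeloid level in silk under 10% of their highest level among the same units of silk. What such transcripts of other cells contribute was not tested.

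The compared fibroblasts gave the same answer. F1 held 45.3% of their UMIs in silk and 57.2% in sponge, and F2 52.2% and 41.2%. Of 8293 genes, 104 were 2-fold higher (1.25%) and 29 lower (0.35%). With equal mixtures 86 and 29 of them remained 2-fold different, 18 lay in between, and composition accounted for 0. Equal mixtures give a weighted mean, so a gene that remained need not differ in each subcluster. Only 7 genes were 2-fold higher and 11 lower in both F1 and F2. Inmt had 2.39 as a whole and 2.66 with equal mixtures, and Tnfsf11 2.96 and 2.66. Inmt was not measured in F2, and at equal depth 1 of 126 silk F1 cells had a Tnfsf11 UMI.

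In the fibroblasts composition came into view when the small subclusters were added. F3 held 13% of fibroblast UMIs in sponge and 2.07% in silk, and F4 6.95% and 0.804%. Over the 5 fibroblast subclusters with at least 5 cells in each library, 113 of 8490 genes were 2-fold higher (1.33%) and 73 lower (0.86%), and 21 of the lower ones came from composition (0.247%). They were 12 genes of dividing cells, such as Top2a and Birc5, and 9 genes of leukocytes, such as Cd53, Itgb2 and Il1b. Top2a, the topoisomerase of dividing cells, had -1.59 as a whole and 0.08 with equal mixtures. It stood at 428 CPM in silk and 381 in sponge in F3, and at 0 and 2.14 CPM in F1. Cd53, a leukocyte membrane protein, stood at 230 and 226 CPM in F4 and at 1.68 and 4.47 CPM in F1. F3 and F4 had 8 and 19 silk cells, so their silk levels rest on few UMIs, 24 for Top2a in F3 and 5 for Cd53 in F4.

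Over the whole library, split into 19 subclusters and classes, 46 of 11914 genes were 2-fold higher (0.386%) and 67 lower (0.562%). Composition accounted for 1 of the higher genes, the T cell costimulator Icos, and for 13 of the lower ones (0.109%). Only 21 of the higher and 19 of the lower genes still differed by 2-fold with equal mixtures, and 24 and 35 lay in between. H2-Eb1 was among those that did (1.26 as a whole, 1.02 with equal mixtures), and H2-Aa (1.16 and 0.91), H2-Ab1 (1.17 and 0.90) and Cd74 (1.27 and 0.98) lay in between. The 13 lower genes put down to composition were mainly matrix genes of fibroblasts. Among them were Has1, a hyaluronan synthase (-1.24 as a whole, -0.41 with equal mixtures), and Sfrp2 (-1.15 and -0.31). The collagen crosslinking enzymes Lox (-1.03 and -0.27) and Loxl1 (-1.10 and -0.30) were others. A small remainder can also arise when subclusters differ in opposite directions. Lox was 2-fold lower in F2, at 132 against 299 CPM, and higher in F1, at 462 against 371 CPM. In the low-quality fibroblasts it stood at 497 against 286 CPM. Gene lists divided the same way. The summed collagen level differed by -0.67 over the whole library and by 0.10 with equal mixtures. The MHC class II list had 1.05 and 0.76, and the interferon list -0.63 and -0.53. So the lower collagen of the silk library as a whole moved with its smaller fibroblast share, and most of the class II and interferon differences was left with equal mixtures.

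**Figure D5:**
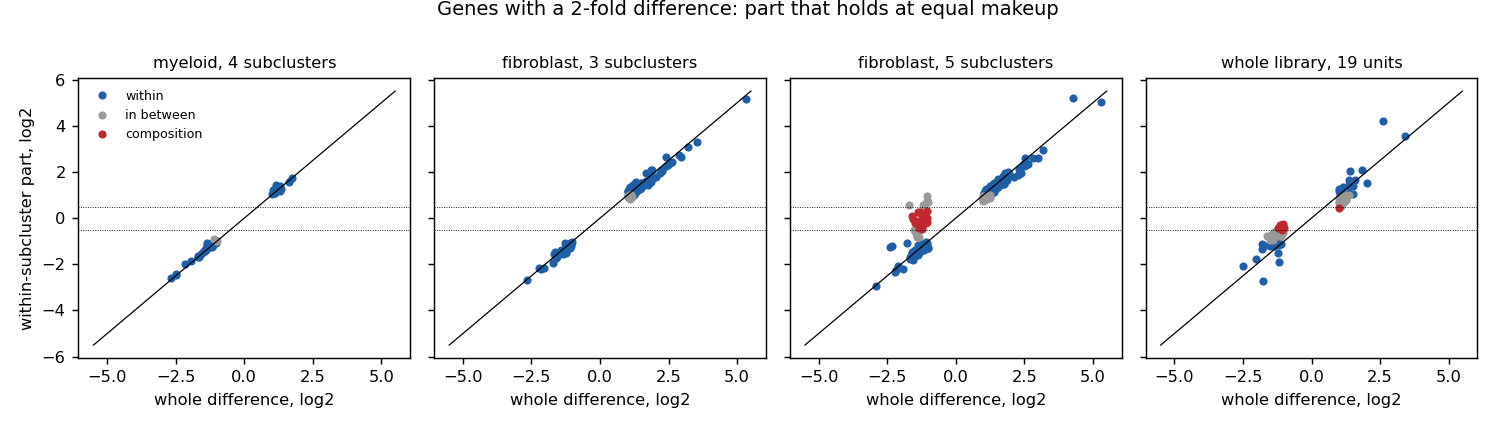
Log2 difference between silk and sponge at 4 weeks as a whole (horizontal) and with equal mixtures of subclusters (vertical) for each gene that was 2-fold different as a whole, in 4 sets of subclusters. Blue points keep 2-fold with equal mixtures, grey points lie in between and red points lie inside 0.5 (dotted lines). Red points are absent from the first 2 panels. With the small subclusters F3 and F4 added there are 21 on the lower side, and over the whole library 13 on the lower side and 1, Icos, on the higher side.

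The 2-week libraries, which share no sample with the 4-week ones, were set beside these values. At 2 weeks 1.26% of measured genes differed by 2-fold in C3, 1.41% in C6, 0.968% in C7, 2.35% in C9, 2.86% in F1, 1.34% in F2, 8.54% in the low-quality fibroblasts and 6.11% in N1. At 4 weeks, both directions together, the shares were 0.795%, 2.86%, 0.699%, 5.31%, 2.72%, 3.3%, 15.9% and 5.95% in the same order. More genes were measured at 2 weeks in every subcluster but F1, where 5460 were measured at 2 weeks and 5547 at 4 weeks. The numbers were 7917 and 3563 in C6, 4376 and 1958 in C9, and 1054 and 309 in the low-quality fibroblasts. The shares of the 2 times thus rest on different genes and do not show a change over time. Of the genes 2-fold different at 4 weeks and measured at 2 weeks, 21 of 24 had the same direction at 2 weeks in C3, 71 of 102 in C6 and 45 of 60 in C7. These are 87.5%, 69.6% and 75% of them, where all genes measured at both times had the same direction in 51.1%, 50.5% and 44.7%. In F1 the shares were 61.0% of 123 genes against 52.9%, and in F2 54.1% of 194 against 51.3%. In C9 and N1 they were 46.5% of 99 and 48% of 25, against 53.5% and 57.6%, and in the low-quality fibroblasts 42.6% of 47 against 46.6%. Genes with a difference at 4 weeks thus shared their direction with 2 weeks more often than all genes did in C3, C6, C7, F1 and, by little, F2. In C9, N1 and the low-quality fibroblasts they did so less often. All genes were not matched to them by level or size of difference, and these shares were not tested. The class II list, summed, had 0.72 in C6 and 0.24 in C7 at 2 weeks, where at 4 weeks it had 1.49 and 1.03.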

How the data were processed

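Single-cell transcriptomes of mouse foreign body granulomas were used from 1 library per material at 4 weeks, with the 2-week pair set beside them. The deposited tables hold raw UMI counts per gene and cell, and the submitters' processing notes name Cell Ranger 3.0.0, Seurat 3.0 and the build mm10, without their roles. Class and subcluster names come from the authors' deposited annotation, and the sources used here do not state its filters. The percent of mitochondrial UMIs per cell is also as deposited by the authors and served for an alternative without cells above 10%. Gene positions are those of GENCODE M21.

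Counts were summed per library and subcluster and divided by the sum to give CPM (Python 3.11.15, pandas 2.3.3, SciPy 1.17.1). No test was run, since each group is 1 library. Printed ratios have 0.5 counts added to each sum and exact binomial intervals. The split by composition weights both libraries with their mean UMI shares. The steps recovered known fold changes in counts simulated with counting error alone. Those counts had no spread between cells or animals, so they cannot check the steps against such spread. The doublet caller of scanpy 1.11.5 marked almost no cells, and its calls were not used. No cell was removed, and an alternative left out the 8% highest scores.

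The compared subclusters and gene lists were chosen with earlier results of these data known. Named genes follow a written rule: those of each count over subclusters with the largest smallest change, the largest of each side of the split, of the opposite changes and of N1, and up to 4 each way of each list, without predicted, ribosomal, mitochondrial, haemoglobin and immune receptor genes. Genes outside it, among them Inmt, Timp3, Pthlh, Crabp2, Ccl22, Hist1h1c, Celf1, Ifi27l2a, Isg15, Serping1, Gm47283 and the genes of composition, were chosen after their values were seen.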

Additional observations from a re-analysis of the deposited data

Results flagged for a closer look

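Among the genes taken for naming, there were 12 pairs of a gene and a subcluster in which silk and sponge differed by 2-fold or more in opposite directions at 2 and at 4 weeks. The same was counted over all genes 2-fold different at 4 weeks and measured at 2 weeks. It held for 0 of 24 in C3, 2 of 102 in C6, 2 of 60 in C7 and 6 of 99 in C9. In F1 it held for 7 of 123 and in F2 for 11 of 194. In the low-quality fibroblasts and N1 it held for 1 of 47 and 1 of 25. Genes 2-fold different in the same direction at both times numbered 6, 21, 13, 3, 28, 13, 4 and 2 in this order. The difference between the times was not tested, and each time has 1 library per material. In C9, Ccl17 had a log2 ratio of -2.48 at 4 weeks and 1.38 at 2 weeks, Cxcl3 -3.56 and 2.01, Slc7a11, a cystine transporter, -1.31 and 1.20, Cxcl9 5.93 and -5.46, and Cxcl10 5.94 and -1.62. At 4 weeks 1 silk cell held 96.0% of the Cxcl9 UMIs and 100% of those of Cxcl10 and Cxcl3. Retnla had 3.64 and -1.5 in C6 and 1.56 and -2.82 in C7, where the levels in silk were 424 CPM at 4 weeks and 21.3 CPM at 2 weeks and those in sponge 144 and 150 CPM. Ctsk had -2.13 and 1.73 in C6, and Igfbp6, a binding protein for insulin-like growth factors, -1.34 and 1.37 in C7. In the fibroblasts, Eln, which encodes elastin, had 1.33 and -1.18 in F1, and Saa3 1.56 and -1.21 in F2. At 4 weeks 1 silk cell held 41.6% of the Eln UMIs in F1, and 1 held 44.1% of those of Saa3 in F2. In N1, Wfdc17, a secreted protein of myeloid cells, had 1.14 and -1.94.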

How the results depend on the processing

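No paired analysis was possible because each material has 1 library at each time. Genes 2-fold different in every myeloid subcluster numbered 0 higher and 0 lower, in every fibroblast subcluster 2 and 0, and across all classes 1 and 1. In the myeloid split 52 genes held within subclusters, that is 2-fold with equal mixtures, and 0 came from composition. The fibroblast split had 115 and 0, and N1 had 10 higher and 15 lower. Alternatives with few cells or a low minimum moved these small counts, and the cause was not tested. At 1.5-fold the counts were 3 and 7 in every myeloid subcluster, 5 and 4 in every fibroblast subcluster and 4 and 3 across all classes. The splits then had 249 myeloid genes within and 2 from composition, 383 fibroblast genes within and 18 from composition, and N1 had 63 and 40. With TMM factors of edgeR 4.0.16, 0 genes were higher across all classes and N1 had 1 higher and 36 lower. With the median gene as the centre N1 had 6 higher. With cells thinned to 1000 UMIs, 1 gene was higher in every myeloid subcluster, 1 in every fibroblast subcluster and 0 across all classes, 31 fibroblast genes held within, and N1 had 6 and 8. With each cell weighted equally, 4 genes were lower in every myeloid subcluster, 1 higher and 1 lower in every fibroblast subcluster and 0 higher across all classes, 90 myeloid genes held within, and 1 fibroblast gene came from composition.

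With a minimum of 10 expected UMIs, 2 genes were lower in every myeloid and 2 in every fibroblast subcluster, and N1 had 52 and 63. With a minimum of 100, 1 gene was higher in every fibroblast subcluster, 0 and 0 held across all classes, 64 fibroblast genes held within, and N1 had 1 and 4. Without a minimum the counts were 1 and 3 in every myeloid and 4 and 10 in every fibroblast subcluster, 0 lower across all classes, and 909 and 1460 in N1. With 1 CPM added instead of 10, 149 myeloid and 214 fibroblast genes held within. With 50 CPM added, 10 myeloid and 31 fibroblast genes did, and 0 and 0 genes held across all classes. Over subclusters of at least 100 cells, 4 genes were lower in every myeloid subcluster, F1 alone gave 75 and 76, and 0 and 2 held across all classes. Over subclusters of at least 5 cells, 1 myeloid and 21 fibroblast genes came from composition.

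Without the low-quality fibroblasts and C9, 4 genes were lower in the remaining myeloid subclusters and 7 higher and 11 lower in F1 and F2. Without values under 10% of a gene's highest level, 2 and 2 genes held across all classes and 25 myeloid genes held within. Without the highest doublet scores 0 and 0 held across all classes, as did 0 and 0 without the top cell of each gene, where N1 had 5 higher. The fold of 1.5, the subclusters of at least 5 cells and the removal of the top cell were chosen after seeing the data. Leaving out cells over 10% mitochondrial UMIs kept all 12 counts within 1.5 times. Cxcl10 in C9 turned to -0.38 without its top cell, Pdgfa in F1 to 0.31 and Nqo1 in F2 to 0 with thinned cells.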
